A study of Bos taurus with 24 samples.

Results

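The liver-restricted genes of middle abundance are 188 of the 24616 genes counted in the livers and mammary glands of lactating dairy cows. They were chosen by their measured levels in the 2 tissues. Each had a mean of at least 100 and under 1000 CPM (counts per 1000000 counts of the library) over 12 livers. That liver mean was also at least 100 times the mean over 12 mammary glands. The 9 identifiers that the rule leaves out were all outside these limits, so leaving them out removed no gene. The study fed 6 cows an alfalfa hay based diet and 6 cows a corn stover based diet for 12 weeks, and took liver and mammary gland from each cow after slaughter. Alfalfa is a legume forage, and corn stover is what remains of the maize plant after the grain is taken. Both diets were represented by 6 livers and 6 mammary glands, each library came from 1 cow, and each diet group held 1 cow of parity 2 and 5 cows of parity 3. No genotype, breed, age or other agent was given in the labels.

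The liver of a lactating cow makes glucose from the products of rumen fermentation, turns ammonia into urea, makes bile acids and secretes most plasma proteins. Most of its mass is hepatocytes, which carry out these tasks together, whereas the mammary epithelium takes up their products from blood and secretes milk. A few plasma protein transcripts make up much of hepatocyte RNA, and below them lies a wide class of transcripts that are still abundant and largely confined to the liver. Enzymes, transporters, clotting factors and carrier proteins are typical of that class in mammals. Which of these functions the 188 genes serve is not stated here, because the files hold Ensembl identifiers alone. The symbol table used here lists no Ensembl identifiers for cattle, so 0 of the 24616 could be matched. The genes are therefore given by identifier, without position, and neither the functional lists nor the hepatocyte and other cell type markers could be applied. The labelled tissues were for the same reason not checked against known markers.

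The values that chose the genes are given here as a description. The liver means ran from 101.95 to 997.7 CPM with a median of 276 CPM. In 73 genes the mean was under 200 CPM, in 67 it was 200 to under 500 CPM, and in 48 it was 500 CPM or more. Mammary means ran from 0.0135 to 6.07 CPM with a median of 0.254 CPM. The median ratio of liver to mammary mean was 1828, and 112 genes reached a ratio of 1000 while 13 reached 5000. All 188 genes had reads in every liver, with at least 325 reads for any gene in any liver, so counting error was small there. In every gene the lowest liver lay above the highest mammary gland, and in 120 genes it lay at least 100 times above it.

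The limits cut through a continuous range of levels. Just inside the lower liver limit were genes at 101.95, 103.7 and 104.03 CPM, and just outside were 99.5, 99.3 and 98.9 CPM. At the upper limit the nearest genes inside were at 997.7, 997.2 and 978 CPM and the nearest outside at 1015, 1034 and 1040.5 CPM. At the fold limit the ratios inside were 101.5, 102.4 and 103.4, and those outside were 97.6, 96.5 and 96.3. A further 78 genes met the fold limit at a liver mean of 1000 CPM or more, and 878 genes had the same liver level without being restricted to liver. These served as the 2 comparison sets below.

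**Figure D1:**
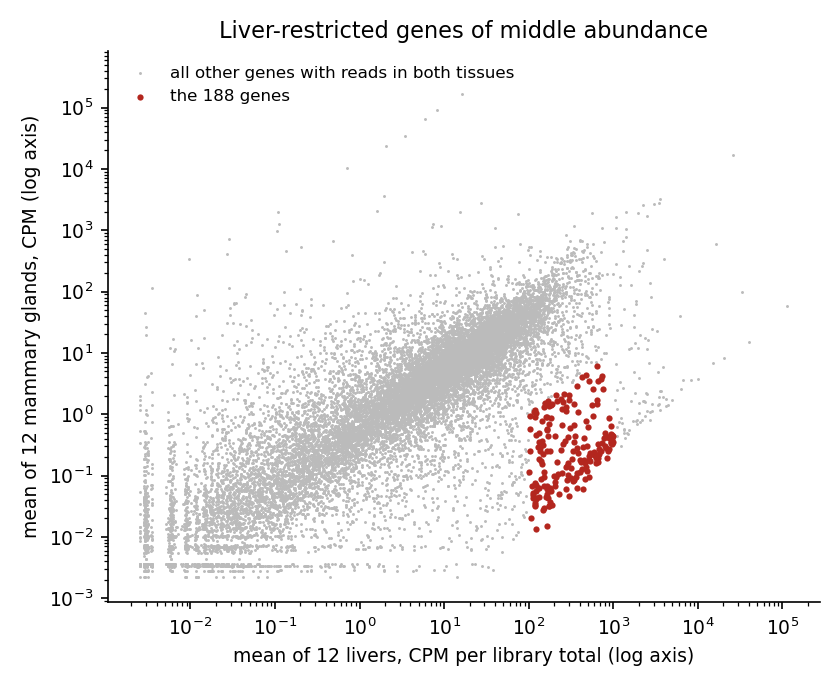
Mean CPM per library total of each gene over the 12 livers (x axis, log scale) and the 12 mammary glands (y axis, log scale). The 188 genes (red) lie between 100 and 1000 CPM in liver and at 0.0135 to 6.07 CPM in mammary gland, apart from the diagonal band in which most other genes (grey) lie.

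Liver libraries held 23595586 to 32563876 counts and mammary libraries 22579051 to 37954234. The 188 genes took 6.82% ± 0.730 of all liver reads (SD, n = 12), against 41.4% ± 2.50 for the 78 abundant liver-restricted genes. Their share ran from 5.65% in alfalfa hay replicate 3 to 8.06% in corn stover replicate 4. It was 6.60% ± 0.688 in the 6 alfalfa hay livers and 7.04% ± 0.763 in the 6 corn stover livers (SD). The ranges of the diets overlapped, at 5.65% to 7.43% and 6.02% to 8.06%. The means differed by 0.440 percentage points, where single livers within a diet had an SD of 0.727. That SD is not the error of the difference, which was not tested. In bulk tissue, fewer cells of a type and less RNA per cell cannot be told apart.

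The highest liver means belonged to ENSBTAG00000003898 and ENSBTAG00000031679. ENSBTAG00000003898 averaged 997.7 ± 309 CPM per library total in liver, and ENSBTAG00000031679 averaged 997.2 ± 342 CPM (SD, n = 12). Levels within a tissue are given from here on as normalised CPM, in which the library total is multiplied by a TMM factor, a trimmed mean of ratios that aligns most genes between libraries. On that scale ENSBTAG00000003898 had alfalfa hay livers at 492, 864 and 1217 (lowest, median and highest) and corn stover livers at 704, 1162 and 1841. Its diets overlapped, with 2 of 6 corn stover livers above all alfalfa hay livers (log2 difference 0.53 ± 0.26, SE; edgeR adjusted p = 0.99999). For ENSBTAG00000031679 the same 3 values were 510.5, 791 and 1891 in alfalfa hay livers, against 452, 1183 and 1584 with corn stover. Here 5 corn stover livers, at 1055 or more, lay above 5 of the alfalfa hay livers, but alfalfa hay replicate 1 was the highest of all and corn stover replicate 6 the lowest (log2 difference 0.29 ± 0.33, SE; edgeR adjusted p = 0.99999).

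The genes differed widely in how steady they were from cow to cow. The SD of log2 normalised CPM over the 12 livers had a median of 0.52 in the 188 genes, with quartiles of 0.40 and 0.69. In all 12929 genes tested the median was 0.45, in the 878 unrestricted genes of the same level it was 0.36, and in the 78 abundant liver-restricted genes it was 0.35. These medians rest on TMM scaling alone and were not compared by a test. In 13 of the 188 genes the SD reached 1, and in 13 the highest liver was at least 10 times the lowest per library total, while in 29 it was less than 2 times the lowest.

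ENSBTAG00000046768 had the largest spread (SD 1.86 on the log2 scale), with livers from 18.9 to 924 normalised CPM, a 48.8-fold range. ENSBTAG00000002340 followed (SD 1.60). Normalised CPM of this gene ran from 19.6 in corn stover replicate 1 to 1221 in alfalfa hay replicate 3, a 62.2-fold range, with corn stover replicate 3 next at 561. This spread did not follow the diets, since 1 liver of each diet held the high values, and the diet medians were 84.8 with alfalfa hay and 150.1 with corn stover. On this TMM scale the steadiest gene was ENSBTAG00000002706 (SD 0.13), whose livers ran from 139 to 198 normalised CPM, a 1.42-fold range. Per library total its range was 1.78-fold, and that of ENSBTAG00000017094 was narrower at 1.46-fold. ENSBTAG00000017816 (SD 0.18) ran from 216 to 333, a 1.54-fold range. Its mean was 275 ± 38.1 normalised CPM with alfalfa hay, against 274 ± 31.8 with corn stover (SD, n = 6).

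With TMM scaling, part of the spread was common to many of the genes. The components below were taken for the 188 genes and with that scaling alone, so no background stands beside them. A principal component analysis of the log2 normalised CPM of the 188 genes over the 12 livers placed 45.1% of their variance on the first component and 14.2% on the second. On the first component 147 genes had loadings of one sign and 41 of the other. Replicate 1 of both diets lay at one end, with scores of 10.1 for corn stover and 9.45 for alfalfa hay, and alfalfa hay replicate 3 lay at the other end at -9.96. The remaining 9 livers lay between -4.40 and 2.71. Alfalfa hay replicate 1 was the highest of the 12 livers in 60 of the 188 genes, and alfalfa hay replicate 3 was the lowest in 53.

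The position of the livers labelled replicate 1 depended on the scaling. Their TMM factors were 0.700 (alfalfa hay) and 0.777 (corn stover), while the factors of the other livers ran from 0.983 to 1.17. With TMM scaling the median gene of the 188 lay 0.43 above its mean over 12 livers (log2) in alfalfa hay replicate 1 and 0.39 above it in corn stover replicate 1. With library totals alone these medians were -0.08 and 0.03. The comparison sets moved with the same scaling: the median of the 78 abundant genes was 0.50 and 0.34 with TMM in these livers, and that of the 878 unrestricted genes was 0.37 and 0.16. Across both libraries, 136 of the 188 genes were higher than in the other 10 livers with TMM scaling and 94 with library totals. Alfalfa hay replicate 3 was low under both scalings, at -0.45 with TMM and -0.41 with library totals. In that liver the median gene of the 78 abundant liver-restricted genes lay at -0.24 and -0.20, and that of the 878 unrestricted genes at -0.04 and -0.01.

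**Figure D2:**
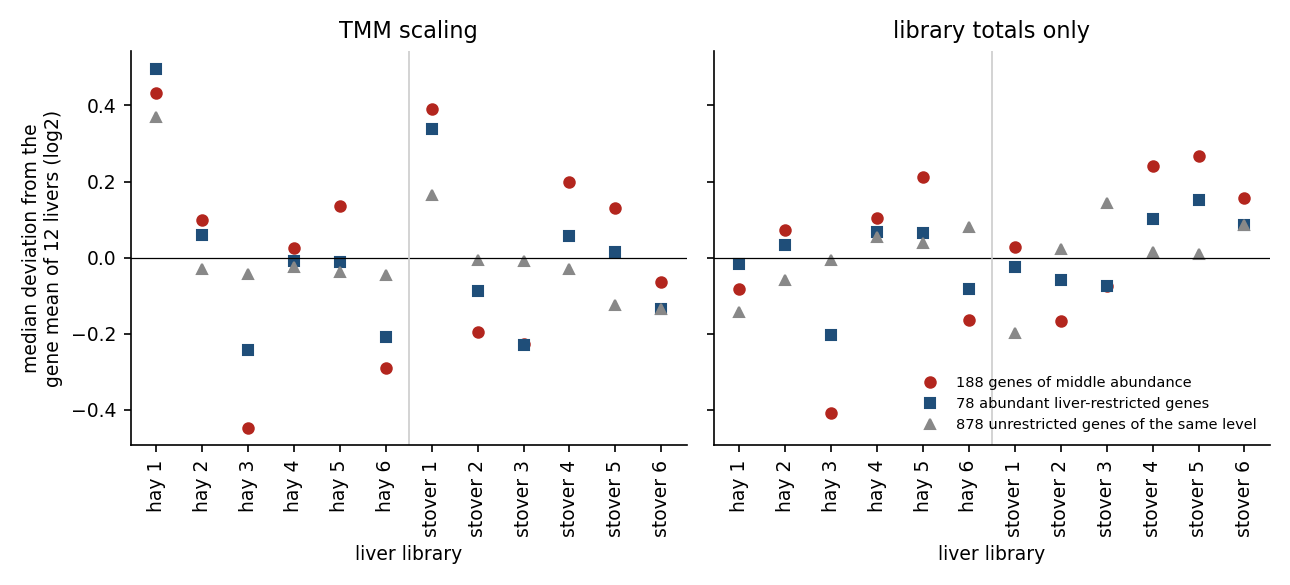
Median deviation (log2) of 3 sets of genes from their mean over the 12 livers, by library, with TMM scaling (left) and with library totals alone (right). The 188 genes (circles) lie at 0.43 and 0.39 in replicate 1 of the diets with TMM scaling but at -0.08 and 0.03 with library totals, while alfalfa hay replicate 3 is lowest under both.

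The diet comparison in liver asked which genes differed between corn stover and alfalfa hay, a contrast that the choice of the genes did not use. All 188 genes passed the filter on low counts. None of them passed an adjusted p of 0.05 (edgeR quasi-likelihood test, Benjamini-Hochberg adjustment over 12929 genes), where 0% of all genes did. At an unadjusted p below 0.05 there were 4 of the 188 genes, which is 2.13%, and 2.74% of all genes tested. Of these 4, 2 had higher levels with corn stover, beside 1.45% of all genes, and 2 had lower levels, beside 1.28%. This count was 3 to 11 when each library was left out in turn, with 9 (4.79%) without alfalfa hay replicate 1 and 11 (5.85%) without corn stover replicate 1. The shares of all genes were then 2.95% and 4.32%. DESeq2 called 1 of the 188 genes and 0.0232% of all genes tested. A count of 0 does not show that the genes were equal between the diets.

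The fitted changes of the 188 genes were small and went both ways. Their median log2 difference was 0.02, beside 0.0036 over all genes tested, and the fitted value was higher with corn stover in 103 and lower in 85, where 50.6% of all genes were higher. The median was -0.02 in the 78 abundant liver-restricted genes and -0.05 in the 878 unrestricted genes of the same level. With library totals in place of TMM the split was 134 higher and 54 lower, and the median was 0.11 beside 0.08 over all genes. Single livers also turned the split: 133 were higher without alfalfa hay replicate 1 and 77 without corn stover replicate 1, with medians of 0.14 and -0.04. In 5 of the 188 genes the fitted change reached 2-fold, beside 1.69% of all genes tested, and in 0 genes did the diets fail to overlap, beside 0.0619%.

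ENSBTAG00000046768 had the smallest p of the 188 genes. Its lowest, median and highest alfalfa hay livers were at 18.9, 36.5 and 54.4 normalised CPM, and its corn stover livers at 34.5, 172 and 924. Of the 6 corn stover livers, 5 lay above all alfalfa hay livers, and corn stover replicate 3, at 34.5, lay within their range. Corn stover replicates 2 and 4 were far above the rest at 662 and 924, while the 3 others lay between 169 and 175. The log2 difference was 3.28 ± 0.63 (SE; edgeR adjusted p = 0.806). DESeq2 called it (adjusted p = 0.00273), as did a fit of all 24 libraries (edgeR adjusted p = 0.0408), and the adjusted p ran from 0.00273 to 0.999995 over 24 alternatives. The fit of all 24 libraries had no term for the cow, so both tissues of a cow counted as independent. Without corn stover replicate 3 the edgeR adjusted p was 0.0955. Since that liver was the 1 within the alfalfa hay range, leaving it out was bound to widen the difference, and the value is a description. The log2 difference was 2.73 to 3.52 without each library in turn. In mammary gland the gene had 0 to 7 reads per library, and its highest value there was 0.284 normalised CPM with alfalfa hay and 0.125 with corn stover.

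ENSBTAG00000015505 was next among genes with higher levels on corn stover. Alfalfa hay livers held a lowest, median and highest value of 129.6, 301 and 548 normalised CPM, and its corn stover livers 427, 722 and 1489. Here 4 of 6 corn stover livers lay above every alfalfa hay liver, and the other 2 lay within the range of that diet. The log2 difference was 1.42 ± 0.38 (SE; edgeR adjusted p = 0.99999), with a range of 1.15 to 2.41 over 24 alternatives.

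Lower levels on corn stover were led by ENSBTAG00000038067. With alfalfa hay its livers were at 266, 471 and 1190 normalised CPM (lowest, median and highest), and with corn stover at 51.6, 228 and 536. Of the corn stover livers 4 lay below every alfalfa hay liver, and replicate 2, at 536, lay above 4 of the 6 alfalfa hay livers. The log2 difference was -1.19 ± 0.46 (SE; edgeR adjusted p = 0.99999). ENSBTAG00000047317 had a mean of 157 ± 56.7 normalised CPM with alfalfa hay, against 103.9 ± 22.4 with corn stover (SD, n = 6; log2 difference -0.59 ± 0.25, SE; edgeR adjusted p = 0.99999). Its corn stover livers, at 76.2 to 133.6, all lay inside the alfalfa hay range of 71.4 to 243.

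**Figure D3:**
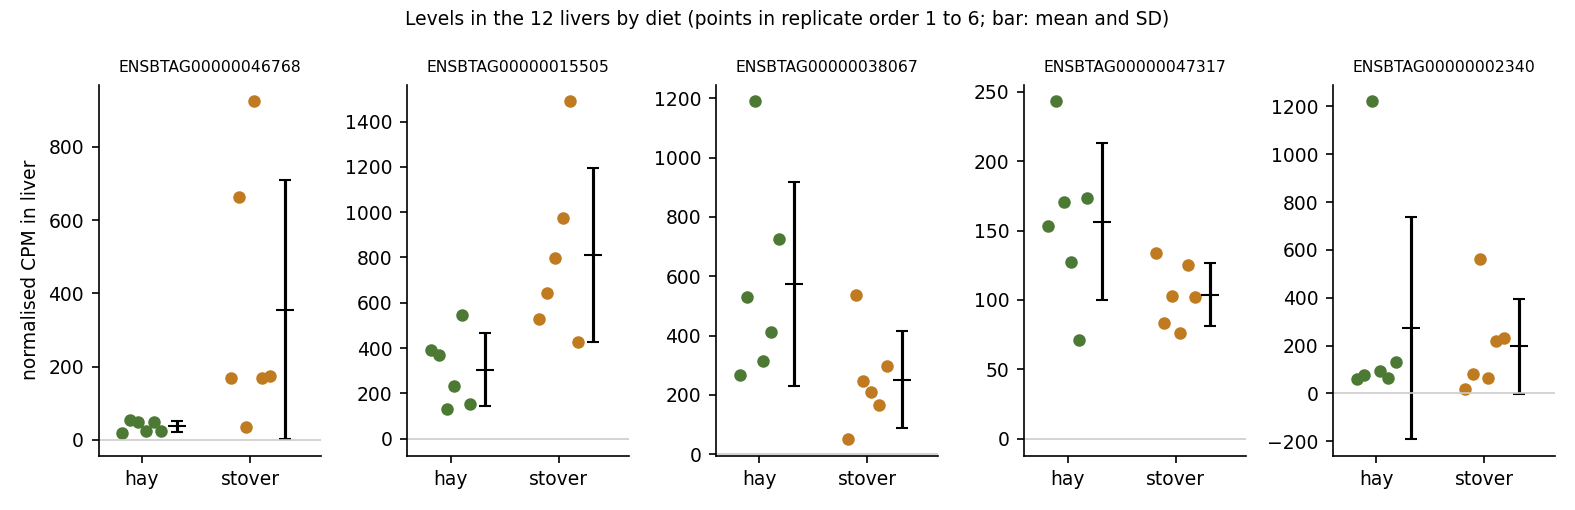
Normalised CPM in the 6 livers of each diet for the 2 genes with the smallest p in each direction and for ENSBTAG00000002340, with points in replicate order and mean and SD beside them; some SD bars reach below 0. Corn stover livers 2 and 4 stand at 662 and 924 for ENSBTAG00000046768, and alfalfa hay liver 3 stands at 1221 for ENSBTAG00000002340.

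**Figure D4:**
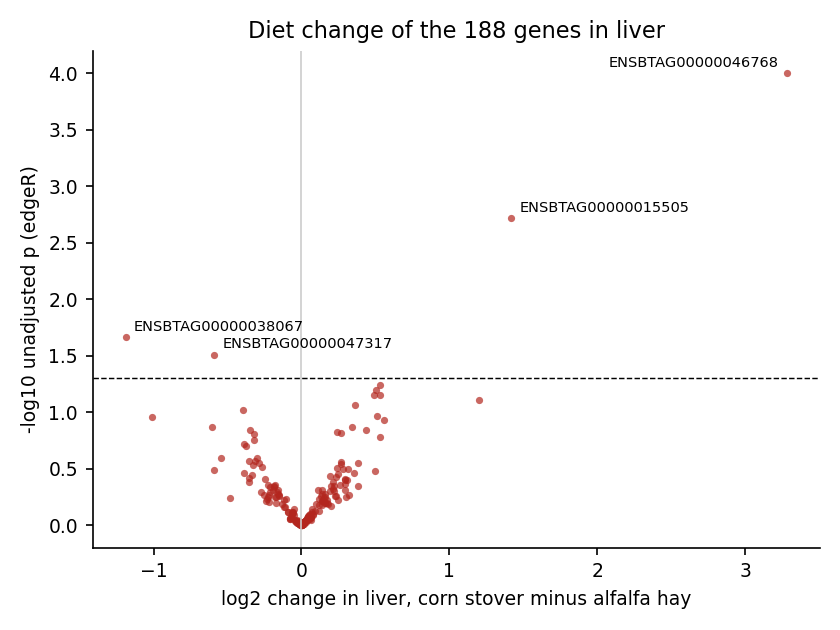
Fitted log2 change in liver (corn stover minus alfalfa hay) against the −log10 of the unadjusted edgeR p for each of the 188 genes, with a dashed line at 0.05. The 4 genes above the line are those labelled, and with edgeR none of them passed the adjusted threshold.

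Reads of the other tissue and the file headers moved with the diets in liver. A set of 11 mammary genes (medians of 1000 CPM or more in mammary gland, and 1000 times the liver median) was read in alfalfa hay livers 1 to 5 at 147 to 296 ppm (parts per 1000000) of its mammary level. In alfalfa hay liver 6 this value was 5.35 ppm, and across the corn stover livers it was 1.45 to 38.9 ppm. The same 5 alfalfa hay livers have a header that carries the letter of the tissue. With a batch term for the header the diets are set apart by alfalfa hay replicate 6 alone, and the median log2 difference of the 188 genes was 0.41 with 0 genes called. The part of these reads in the diet differences was not tested.

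Milk yield gave a further contrast within the liver libraries that the choice of the genes did not use. The slope of each gene on milk yield, in log2 units per kg of milk per day, was fitted with diet as a covariate, since yield differed between the diets. None of the 188 genes passed an adjusted p of 0.05 (edgeR, smallest adjusted p = 0.99986), where 0% of all 12929 genes did, and 3 had an unadjusted p below 0.05, beside 1.49% of all genes tested. The median slope was 0.02, beside 0.0024 over all genes. Slopes were positive in 121 of the 188 genes and in 54 of the 78 abundant liver-restricted genes, beside 52% of all genes. They were also positive in 501 of the 878 unrestricted genes of the same level. The difference between these shares was not tested. Corn stover replicate 1, with its low TMM factor of 0.777, was also the cow of highest yield on its diet. Alfalfa hay replicate 1, with the lowest factor of 0.700, was not. Its yield of 24.7 kg per day lay in the lower part of its diet's range of 23.3 to 29.003. The slopes were not fitted with library totals, so the part of the scaling in them was not tested.

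The smallest p for a positive slope belonged to ENSBTAG00000011374 and ENSBTAG00000013596. For ENSBTAG00000011374 the slope was 0.20 ± 0.07 (SE; edgeR adjusted p = 0.99986). Its lowest, median and highest livers were at 31.8, 119 and 213 normalised CPM with alfalfa hay, against 53.3, 84.7 and 201 with corn stover. The highest livers were alfalfa hay replicate 2 and corn stover replicate 1, which were also the 2 cows of parity 2 and the cows of the highest yield in their diet, at 29.003 and 23.3 kg per day. In parity 3 cows alone the slope was 0.08 (edgeR adjusted p = 1). For ENSBTAG00000013596 the slope was 0.13 ± 0.05, and it was 0.09 without alfalfa hay replicate 3, its highest liver at 222 normalised CPM. For ENSBTAG00000019093 and ENSBTAG00000020556, the negative slopes of smallest p, it was -0.10 ± 0.06 and -0.08 ± 0.04 (SE; edgeR adjusted p = 0.99986 each).

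In mammary gland the 188 genes were present at trace levels that differed between libraries. Together they had 1850 to 3089 reads per alfalfa hay library and 2602 to 5601 per corn stover library. Their summed level was 88.6 ± 11.9 CPM per library total with alfalfa hay, against 140.7 ± 48.0 CPM with corn stover (SD, n = 6 each). Alfalfa hay replicate 2, at 109.5 CPM, was the only library of its diet within the corn stover range of 106.8 to 217 CPM. The highest sums, 217 and 185 CPM, belonged to corn stover replicates 2 and 3. The number of the 188 genes with a read was 107 to 165 in alfalfa hay libraries and 138 to 184 in corn stover libraries. In 69 genes every mammary library had a read, and in 19 fewer than 6 had one. A count of 0 allows a level of up to 0.0790 to 0.133 CPM, depending on the library, which is the limit of 3 counts and covers counting error only.

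Relative to liver, the median of the 188 genes stood at 119 to 522 ppm of its liver mean in alfalfa hay mammary glands. With corn stover it stood at 1141, 1643 and 965 ppm in replicates 2, 3 and 4 and at 295, 417 and 322 ppm in replicates 1, 5 and 6. The latter 3 lay within the alfalfa hay range. The 78 abundant liver-restricted genes gave similar medians in the same libraries, of 898, 1862 and 1099 ppm in corn stover replicates 2, 3 and 4 against 73.7 to 485 ppm in the alfalfa hay libraries.

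The genes were also grouped by their mammary level. At a limit set after the data were examined, 36 genes had a mammary mean of 1 CPM or more and 152 had less. The 36 genes held 66.3% of the mean summed mammary level of the 188. Their sum ran from 51.3 to 87.9 CPM with alfalfa hay. With corn stover it was 117 and 93.1 CPM in replicates 2 and 3, and 60.8 to 81.7 CPM in the other 4, inside the alfalfa hay range. ENSBTAG00000001893, among the 36, had 561 of its 641 mammary reads in corn stover replicate 2. It stood at 23.3 normalised CPM there and at 1.37 or less in every other mammary library. This gene is thus among the 36 mainly through that library. It was not the only gene with many of its reads there. ENSBTAG00000011944, also among the 36, had 186 of its 423 mammary reads in that library. Among the other 152, ENSBTAG00000026181 had 203 of 289 there and ENSBTAG00000002258 had 176 of 289. These genes were picked after their values were seen, and genes of this kind were not counted. The sum of the other 152 ran from 16.4 to 30.1 CPM with alfalfa hay. It was 99.8, 91.9 and 55.8 CPM in corn stover replicates 2, 3 and 4, and 27.6, 30.1 and 27.4 CPM in corn stover replicates 1, 5 and 6. The sum of the 152 genes of lower mammary level thus set these 3 libraries apart from the other 9, and that of the 36 left replicate 4 among the others. Relative to liver, the median of the 36 genes was 8142, 6563 and 6412 ppm in corn stover replicates 2, 1 and 3. It was 5022 to 5352 ppm in replicates 4, 5 and 6, inside the alfalfa hay range of 4097 to 5569 ppm. Since the grouping used the mammary level, these values cannot show whether the groups differ in pattern.

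**Figure D5:**
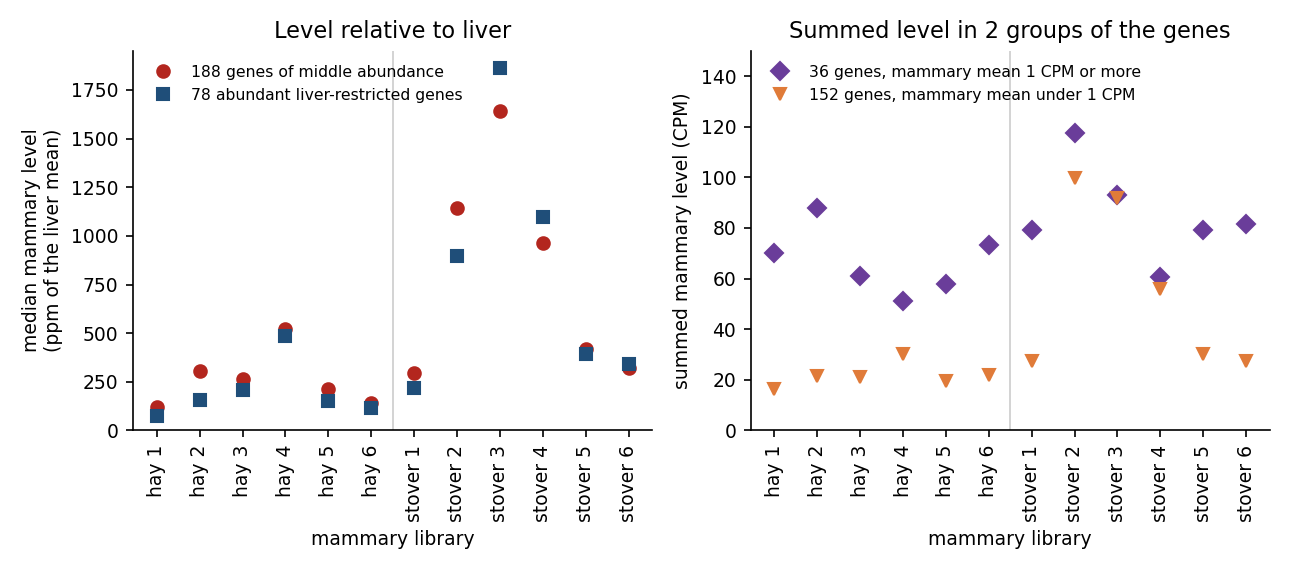
Left, the median mammary level of the 188 genes and of the 78 abundant liver-restricted genes in ppm of their liver mean, by mammary library. Right, the summed CPM of the 36 genes with a mammary mean of 1 CPM or more and of the other 152 genes; corn stover libraries 2, 3 and 4 lie highest on the left at 1141, 1643 and 965 ppm and, for the 152 genes, at 99.8, 91.9 and 55.8 CPM on the right.

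The highest mammary means belonged to ENSBTAG00000004215, ENSBTAG00000021263 and ENSBTAG00000021535, at 6.07 ± 1.83, 4.37 ± 2.47 and 4.28 ± 2.31 CPM per library total (SD, n = 12). ENSBTAG00000004215 was found at 3.54 to 10.1 CPM in every mammary library, and in liver it averaged 650 ± 195 CPM. By diet its mammary mean was 6.48 ± 1.31 normalised CPM with alfalfa hay, against 5.69 ± 2.40 with corn stover (SD, n = 6). The highest mammary library of ENSBTAG00000021263 was corn stover replicate 6, at 11.4 normalised CPM, and that of ENSBTAG00000021535 was alfalfa hay replicate 6, at 8.58. None of the 3 was highest in corn stover replicates 2, 3 or 4.

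The diet comparison in mammary gland could be made for 52 of the 188 genes, and 136 did not pass the filter on low counts. Of the 52, 7 reached the level the filter asks for in fewer than 3 alfalfa hay libraries and so passed mainly through corn stover. The counts that follow are a description of the genes that passed. None of the 52 passed an adjusted p of 0.05 (edgeR, smallest adjusted p = 0.394), where 0% of 12027 genes did, and DESeq2 also called 0 of the 52, beside 0.349% of all genes. At an unadjusted p below 0.05 there were 10, beside 6.52% of all genes, and all 10 had higher levels with corn stover, beside 3.63% of all genes. The 7 genes that passed mainly through corn stover supplied 4 of these 10. Of the other 45 genes, 6 (13.3%) were below that p, beside 6.22% of all genes with the same level in at least 3 alfalfa hay libraries. Without corn stover replicate 2 there were 6 of 51 (11.8%, beside 6.36% of all genes), of which 5 were higher. Without replicates 2, 3 and 4 there were 3 of 55 (5.45%, beside 4.58% of all genes), of which 2 were higher. These were the 3 libraries in which the 188 genes stood highest relative to liver. Leaving them out was thus bound to lower the values with corn stover, and the outcome is a description. With days in milk as a covariate 4 of the 52 genes were below that p (7.69%, beside 8.47% of all genes). Days in milk ran from 231 to 246 with alfalfa hay and from 228 to 254 with corn stover. Corn stover replicates 2, 3 and 4 stood at 254, 253 and 254. Days in milk thus went partly with diet, and that fit cannot set them fully apart. In the main fit the values were higher in 39 of the 52 genes, beside 50.2% of all genes. The median log2 difference was 0.35 with all 12 libraries and 0.04 without those 3, beside 0.0014 and -0.0013 over all genes.

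ENSBTAG00000023411 was the 1 gene of the 52 whose diets did not overlap, beside 0.341% of all genes tested. Its mammary glands were at 0.331, 0.652 and 1.36 normalised CPM with alfalfa hay (lowest, median and highest), against 1.45, 1.87 and 3.21 with corn stover. The log2 difference was 1.36 ± 0.37 (SE; edgeR adjusted p = 0.394, DESeq2 adjusted p = 0.0712). Corn stover replicate 1 was highest at 3.21 and replicate 2 lowest at 1.45, and the part of liver-type reads in these values was not tested. Liver means of the gene were 189.9 ± 92.9 normalised CPM with alfalfa hay, against 195 ± 46.2 with corn stover (SD, n = 6).

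The smallest p among the 52 belonged to ENSBTAG00000038461, with alfalfa hay libraries at 0.0395, 0.112 and 0.515 normalised CPM (lowest, median and highest) and corn stover libraries at 0.387, 0.763 and 0.886. Of its corn stover libraries 4 lay above every alfalfa hay library, and alfalfa hay replicate 4, at 0.515, lay among the corn stover values. This gene reached the filter's level in all 6 corn stover libraries and in 0 alfalfa hay libraries, with 1 to 14 reads in each of the latter. It was thus tested only because it was high with corn stover, and its difference is a description (log2 2.03 ± 0.55, SE; edgeR adjusted p = 0.394). Its highest libraries, at 0.886 and 0.835, were corn stover replicates 4 and 3, which were also among the 3 with the most liver-type reads, and the part of those reads was not tested. Lower mammary levels with corn stover were led by ENSBTAG00000006937 (log2 difference -0.70 ± 0.44, SE; edgeR adjusted p = 0.866) and ENSBTAG00000001595 (-1.13 ± 0.76, SE; edgeR adjusted p = 0.883), the latter with 2 alfalfa hay libraries at the filter's level. In ENSBTAG00000001595 alfalfa hay replicates 1 and 2 stood at 4.29 and 6.59, and the other 4 alfalfa hay libraries at 0.236 to 0.366, below all corn stover libraries at 0.506 to 1.85. The fitted difference of that gene therefore has the opposite sign to the difference of its medians, 0.348 normalised CPM with alfalfa hay against 0.792 with corn stover.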

How the data were processed

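The authors deposited 1 file of raw read counts per library for 24616 Ensembl identifiers, as whole numbers. The submitters' processing notes name build UMD3.1, HTSeq 0.6.1, TopHat2 2.0.9 and SAMtools 1.1. Annotation release and strand setting were not given in the sources used here, so overlapping genes and near-identical copies may share reads. Membership used CPM per library total. Diet (corn stover minus alfalfa hay) and milk yield were tested with edgeR 4.0.16 (R 4.3.3) quasi-likelihood fits over all genes of a tissue, after filterByExpr (minimum count 10, minimum total count 15), TMM scaling and Benjamini-Hochberg adjustment at 0.05. A standard error is the log2 change over the square root of F. Alternatives included DESeq2 1.42.0 and limma 3.58.1. The code was tested on simulated data. P-values measure the spread between cows within a tissue, except in the fit of all 24 libraries. That fit had no term for the cow and counted both tissues of a cow as independent. The genes, lists and tests were chosen with earlier results of these data known. Without symbols, identifiers were named by a rule written beforehand: the 2 of highest liver level, of largest and smallest spread, and of smallest p in each direction, and the 3 of highest mammary level.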

Additional observations from a re-analysis of the deposited data

Results flagged for a closer look

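In 50 groups of 6 values, 7 held a highest value far from the other 5. Chance alone gives about 2.5 in 50 where values are normally distributed, but these values were not put on a log scale. Some of these genes were also named for their spread or slope, which 1 high value can set, so the count is a description. In liver, ENSBTAG00000002340 stood at 1221 normalised CPM in alfalfa hay replicate 3, against 58.5 to 131 in the other alfalfa hay livers. ENSBTAG00000013596 was also far highest in that liver, at 222 against 72.3 to 120.7. ENSBTAG00000031679 stood at 1891 in alfalfa hay replicate 1, against 510.5 to 914, and ENSBTAG00000011374 at 201 in corn stover replicate 1, against 53.3 to 106.1. These 2 livers have the low TMM factors of 0.700 and 0.777. In mammary gland, ENSBTAG00000021263 stood at 11.4 in corn stover replicate 6, against 2.37 to 4.88, and ENSBTAG00000023411 at 3.21 in corn stover replicate 1, against 1.45 to 2.09. ENSBTAG00000038461 stood at 0.515 in alfalfa hay replicate 4, against 0.0395 to 0.122.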

How the results depend on the processing

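In liver 0 of the 188 genes passed in the edgeR fit, and 22 of 24 alternatives gave 0; DESeq2 and the fit of all 24 libraries each called 1 of the 188 and 3 of all genes. Leaving out each library kept both counts at 0. The median log2 difference of the 188 genes in liver was -0.04 to 0.14 without each library in turn, and 0.41 with the header kind as a batch term, which rests on 1 alfalfa hay library. In mammary gland 0 of the 188 genes passed under all 23 alternatives, and for milk yield 0 under all 18. The mammary median, added after seeing the data, was 0.21 to 0.46 without each library in turn. It was 1.39 without a filter and 1.36 in the fit of all 24 libraries, where 188 genes entered. The fit of all 24 libraries had no term for the cow. Without corn stover replicates 2, 3 and 4, picked for their high levels of liver-restricted genes, the mammary median was 0.0396. Replicate numbers name different cows, and the deviations of same-numbered livers correlated at 0.057 to 0.56. Alfalfa hay livers 1, 3, 4 and 6 correlated best with the corn stover liver of their own number, and livers 2 and 5 did not. In mammary gland this held for replicates 1, 3 and 6 and not for 2, 4 and 5. With the replicate block 0 of the 188 genes passed in either tissue, and 12 (6.38%, beside 5.89% of all genes) in place of 4 had an unadjusted p below 0.05 in liver. There were 13 in parity 3 cows alone (6.91%, beside 5.82%), 9 with the batch term (4.79%, beside 2.17%) and 8 with library totals (4.26%, beside 2.42%). With the replicate block ENSBTAG00000046768 had an edgeR adjusted p of 0.607. Medians in place of means gave 191 genes, 178 of them shared with the 188, and TMM-scaled CPM gave 150, of which 134 were shared. The TMM-scaled share of liver reads differed between the diets by 0.0696 percentage points in place of 0.440. The count of mammary genes with an unadjusted p below 0.05, 10 of 52, was 64 of 188 without a filter (34.04%, beside 7.66% of all genes), 86 of 188 in the fit of all 24 libraries (45.7%, beside 7.89%) and 4 of 52 with days in milk as a covariate (7.69%, beside 8.47%), all higher with corn stover. Genes with few mammary reads carry the counting error of those reads.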

Other observations

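Some of the most variable genes of the 188 were uneven between the cows in both tissues. ENSBTAG00000002340 was highest in liver in alfalfa hay cow 3 and corn stover cows 3, 6 and 5, at 1221, 561, 233 and 219 normalised CPM. In mammary gland its highest values were in corn stover cow 6, alfalfa hay cow 3, corn stover cow 3 and alfalfa hay cow 6, at 2.85, 1.38, 1.17 and 0.989. These were 87, 34, 28 and 25 reads, and the other 8 mammary libraries had 0 to 9.

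ENSBTAG00000038067 had a different pattern. In mammary gland it stood at 11.1 and 18.0 normalised CPM in alfalfa hay replicates 1 and 2, at 0.0473 to 0.846 in the other alfalfa hay libraries and at 1.11 to 3.78 on corn stover. The first 2 values are 307 and 464 reads. The same 2 mammary libraries were the highest for ENSBTAG00000001595. In liver both genes were lowest in corn stover replicate 1, at 51.6 and 43.4. These genes were picked after their values were seen.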
